A study of Homo sapiens with 20 samples.

Results

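Lung identity in 6 lung adenocarcinoma cell lines was read from 10 genes, which were taken from the 36076 genes of the expression table by their symbols. These were the transcription factors NKX2-1, FOXA1, FOXA2 and HNF4A, the surfactant protein genes SFTPB, SFTPC and SFTPA1, the aspartic protease gene NAPSA, the club cell secretoglobin gene SCGB1A1 and the membrane mucin gene MUC1. All 10 symbols had a row. Messenger RNA was sequenced from H1792, H1299, PC9, A549, CL1-0 and CL1-5 cells, each treated with PBS (Mock) or with 100 nM decitabine (DAC) for 3 days and then grown for 3 days in drug-free medium, with 1 library per line and treatment. Open chromatin was measured by Omni-ATAC-seq, which reads DNA accessible to a transposase, in A549, CL1-5, PC9 and H1299 under the same treatments, again with 1 library each. Decitabine is a cytidine analogue that is built into DNA and traps DNA methyltransferases. The lines carry no engineered allele in the labels, and CL1-5 is a subline of CL1-0, so these 2 lines are not independent.

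In the lung, NKX2-1 is the homeodomain factor that marks lung and thyroid epithelium from early development and drives surfactant genes in alveolar type II cells, together with the forkhead factors FOXA1 and FOXA2. Alveolar type II cells make surfactant, whose proteins B and C are processed from precursors by proteases that include napsin A, the product of NAPSA. Club cells of the small airways secrete the product of SCGB1A1. HNF4A is a nuclear receptor of liver and gut that is found in lung adenocarcinomas lacking NKX2-1. Pathologists use NKX2-1 (TTF-1) and napsin A to assign an adenocarcinoma to the lung.

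In Mock cells, 4 of the 10 genes reached an FPKM of 1 in any line (FPKM, fragments scaled to gene length and library size, is the unit of the deposited table). These were FOXA1, FOXA2, MUC1 and HNF4A. NKX2-1, the surfactant genes, NAPSA and SCGB1A1 stayed under 1 in the 12 libraries. Over the 60 pairs of gene and line, 11 reached FPKM 1 in Mock, and 9 of these remained when CL1-0 was left out. By line, A549 had 3 of the 10, whereas CL1-0, CL1-5 and PC9 had 2 each and H1299 and H1792 had 1 each. Over all genes of the table, the share at FPKM 1 or more in Mock was 31.6% in H1299, 34.2% in H1792 and 33.9% in PC9, with A549 at 33.6%, CL1-0 at 32.8% and CL1-5 at 34%.

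Libraries held between 22234485 and 25303899 reads on genes in 5 lines, and 59735913 (Mock) and 52634234 (DAC) in H1299. In H1299, 85.5% and 81.9% of genes with few reads had an even number of reads, against 39.2 to 41.5% elsewhere, so H1299 reads were counted in pairs for intervals and floors. Intervals are exact 95% Poisson intervals and cover counting error only. The floor is the FPKM that 3 counts would give (6 reads in H1299). The library labelled CL1-0 held little mRNA of epithelial cells. There 0 of 8 epithelial markers reached FPKM 1 in Mock, and their summed FPKM was 1.22 in Mock and 3.45 after DAC, against a range of 112 to 3590 in the other Mock libraries. KRT8, a keratin of simple epithelia, was at 0.154 FPKM in CL1-0 and 1578 in A549. The count of expressed genes and the fitted changes are therefore also given without CL1-0.

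**Figure D1:**
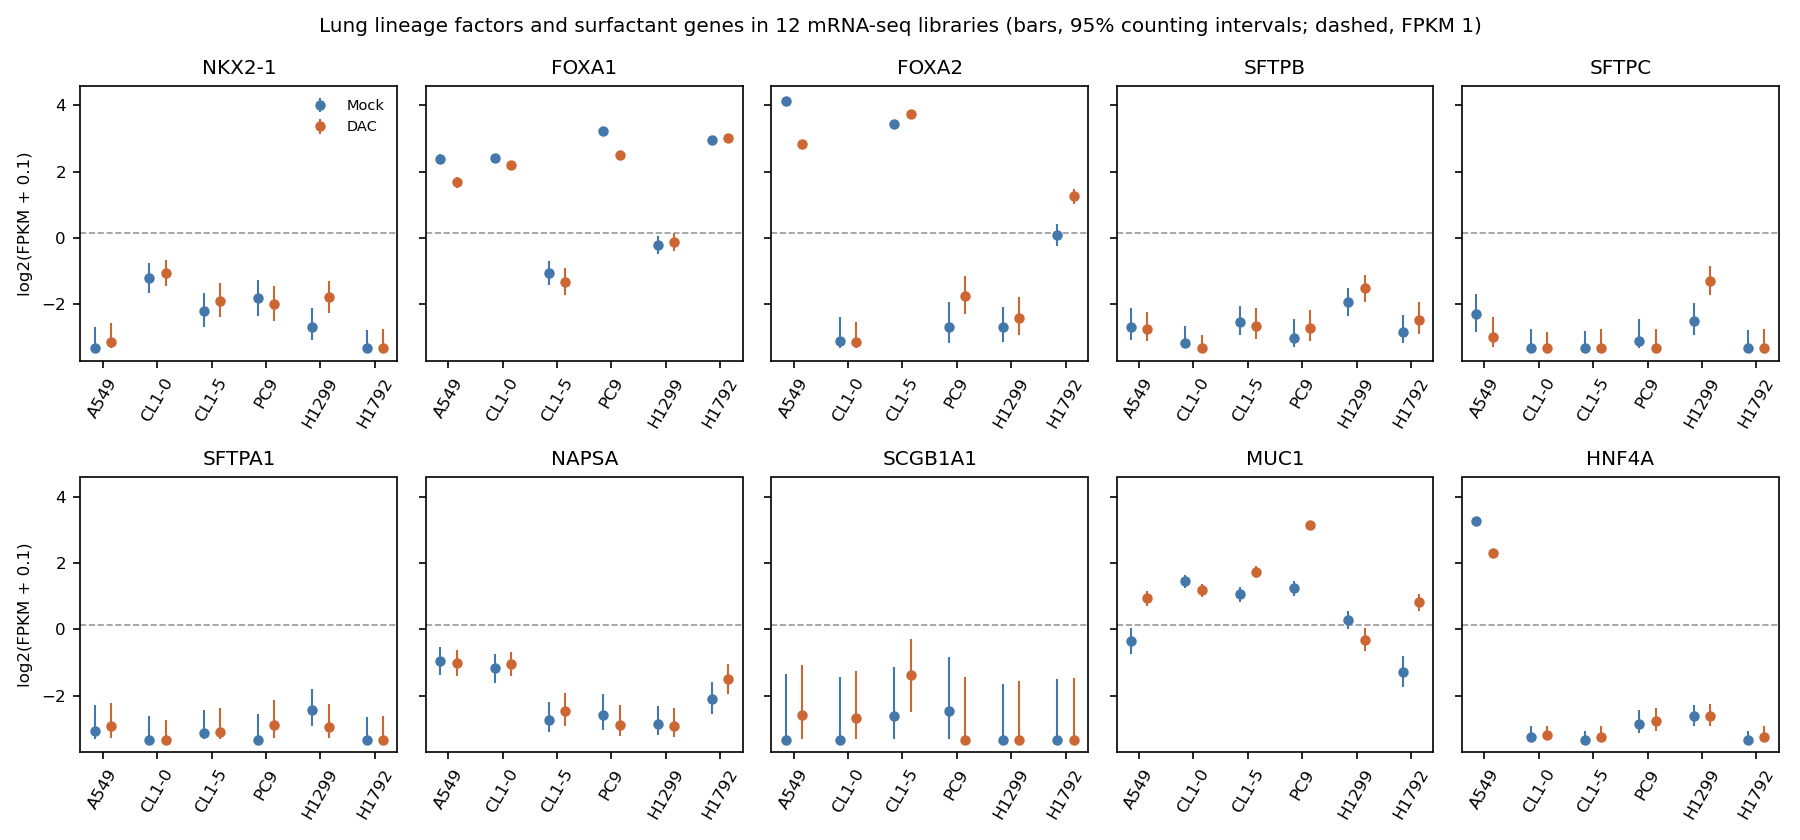
Level of each of the 10 genes in the 12 mRNA-seq libraries, as log2(FPKM + 0.1) by cell line, with Mock in blue and DAC in orange. Bars are 95% counting intervals and the dashed line is FPKM 1; FOXA1, FOXA2, MUC1 and HNF4A cross it, and the other 6 genes stay below it in the libraries shown.

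NKX2-1 (ENSG00000136352, chr14:36985597-36990354 on GRCh37, minus strand) was scarce or not detected. Its Mock level was 0.335 FPKM in CL1-0, 0.182 in PC9, 0.117 in CL1-5, 0.055 in H1299, and 0 in A549 and H1792. These rested on 25 reads in CL1-0, 12 in PC9, 10 in CL1-5 and 10 in H1299. Neighbours in this order did not differ beyond their counting intervals, and the intervals of the 0 reads in A549 and H1792 reached 0.054 and 0.047 FPKM. After DAC the level was 0.384 in CL1-0, 0.150 in PC9, 0.169 in CL1-5, 0.191 in H1299, 0.012 in A549 and 0 in H1792. The highest of the 12 values was thus that of CL1-0 after DAC. The authors name a stranded library kit, but the strand used in counting is not given in the sources used here. Reads of the antisense transcript NKX2-1-AS1 may therefore be mixed with those of NKX2-1. The neighbouring gene SFTA3 had its own row, at 0 FPKM in each Mock library and at most 0.028 after DAC, in PC9. Whether overlapping reads were shared between these genes was not tested.

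FOXA1 (ENSG00000129514, chr14:38058757-38065264, minus strand), a pioneer factor that opens chromatin in endoderm, reached FPKM 1 in 4 lines in each treatment. Its Mock level was 9.32 in PC9, 7.61 in H1792, 5.23 in CL1-0, 5.16 in A549, 0.760 in H1299 and 0.380 in CL1-5. CL1-0 and A549 did not differ beyond counting error, whereas each other step in this order did. After DAC, FOXA1 was at 5.58 in PC9, 7.96 in H1792, 4.46 in CL1-0, 3.10 in A549, 0.827 in H1299 and 0.300 in CL1-5. The same 4 lines stayed above FPKM 1 and the same 2 below it.

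FOXA2 (ENSG00000125798, chr20:22561636-22566093, minus strand), its close relative, followed another order. Its Mock level was 17.3 in A549, 10.8 in CL1-5, 0.976 in H1792, 0.055 in PC9, 0.054 in H1299 and 0.016 in CL1-0. The last 3 lines did not differ beyond counting error, and each rested on 1 to 8 reads. CL1-0 and its subline CL1-5 had opposite orders for the 2 factors, with FOXA1 at 5.23 and 0.380 and FOXA2 at 0.016 and 10.8. After DAC, FOXA2 was at 7.05 in A549, 13.2 in CL1-5, 2.31 in H1792, 0.199 in PC9, 0.087 in H1299 and 0.013 in CL1-0.

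HNF4A (ENSG00000101076, chr20:42984339-43061485, plus strand) was expressed in A549, where its Mock level was 9.52 FPKM from 1491 reads. The next line, H1299, had 0.062 FPKM from 26 reads, 153-fold lower than A549. PC9 had 0.039, CL1-0 had 0.006 from 1 read, and CL1-5 and H1792 had 0 reads. After DAC, HNF4A was at 4.81 in A549 and between 0.006 and 0.062 in the other lines. A549 and H1792, the 2 lines with 0 reads of NKX2-1 in Mock, had the highest HNF4A level and 0 reads of it in Mock, respectively.

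MUC1 (ENSG00000185499, chr1:155158300-155162707, minus strand), a transmembrane mucin of the apical surface of glandular epithelium, was present in all 6 lines. Its Mock level was 2.63 in CL1-0, 2.27 in PC9, 1.98 in CL1-5, 1.12 in H1299, 0.693 in A549 and 0.313 in H1792. CL1-0 and PC9, PC9 and CL1-5, and H1299 and A549 did not differ beyond counting error. After DAC, it was at 2.18 in CL1-0, 8.72 in PC9, 3.23 in CL1-5, 0.709 in H1299, 1.82 in A549 and 1.66 in H1792. PC9 was then the highest line and H1299 the lowest.

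NAPSA (ENSG00000131400, chr19:50861729-50869087, minus strand) was at 0.417 FPKM in A549 and 0.343 in CL1-0 in Mock, and between 0.039 and 0.135 in the other 4 lines. After DAC it was at 0.397 in A549, 0.387 in CL1-0 and 0.256 in H1792, and between 0.032 and 0.080 in the rest. A549 and CL1-0 did not differ beyond counting error, with 32 and 29 reads in Mock.

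The surfactant genes and SCGB1A1 were near the limit of detection. The highest of their 48 values was 0.309 FPKM, and 20 of the 48 were 0. SFTPB (ENSG00000168878, chr2:85884437-85895864, minus strand), whose protein spreads the surfactant film, reached 0.162 FPKM in Mock in H1299 and 0.249 after DAC. In the other 5 lines it lay between 0.010 and 0.072 in Mock and between 0 and 0.081 after DAC. SFTPC (ENSG00000168484), the most specific marker of alveolar type II cells, was at 0.102 in A549 and 0.077 in H1299 in Mock, with 0 or 1 read in each other line. After DAC it was at 0.025 in A549 and 0.309 in H1299. SFTPA1 (ENSG00000122852, chr10:81370695-81375211, plus strand) was at 0.086 in H1299 in Mock and at or under 0.035 in each other library. SFTPA1 and its near-identical copy SFTPA2 share reads, and SFTPA2 was at or under 0.064 FPKM. SCGB1A1 (ENSG00000149021, chr11:62172575-62190667, plus strand) had between 0 and 4 reads per library. Its floor was between 0.174 and 0.248 FPKM, so lower levels were not detectable at this depth.

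The other genes of these cell types were read from 12 lists, of which 118 of 119 genes were in the table. Among 14 alveolar type II genes, 4 or 5 reached FPKM 1 in each Mock library. This lies near the share over all genes of the table, from 31.6% in H1299 to 34.2% in H1792. LPCAT1, which remodels surfactant phospholipid and acts in many tissues, had the highest Mock level of the list, 39.2 in PC9, and its lowest Mock level was 6.86 in H1299. ABCA3, the lipid transporter of lamellar bodies, was at 20.02 FPKM in H1792, 13.2 in H1299 and 5.50 in A549 in Mock. By contrast, the secreted surfactant protein gene SFTPD did not pass 0.473 FPKM in any library. SLC34A2, a phosphate transporter of type II cells, was at 0 in 5 Mock libraries and 0.104 in H1299, and at 1.14 in A549 after DAC.

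Markers of other epithelia differed by line. In A549, 5 of 16 gastrointestinal and 4 of 10 hepatic genes reached FPKM 1, including the urea cycle enzyme gene CPS1 at 15.4 and the fibrinogen gene FGA at 14.3. Both counts lie near the share over all genes of the table in A549 Mock, 33.6%. In CL1-0, the fibrinogen gene FGG was at 89.4 FPKM, above its 10.2 in A549, with HNF4A at 0.006. PC9 had 8 of 8 epithelial markers, and the basal keratin gene KRT5 was at 73.7 and the secreted siderophore binder LCN2 at 232. A549 had 6 of 8 epithelial markers, H1792 had 7, CL1-5 had 3 and H1299 had 2, while 4 to 6 of 6 mesenchymal genes were at FPKM 1 or more in each line. VIM, an intermediate filament gene of mesenchymal cells, was highest in H1299 at 481. The synaptic vesicle gene SYP, a neuroendocrine marker, was highest in CL1-0 at 7.88.

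**Figure D2:**
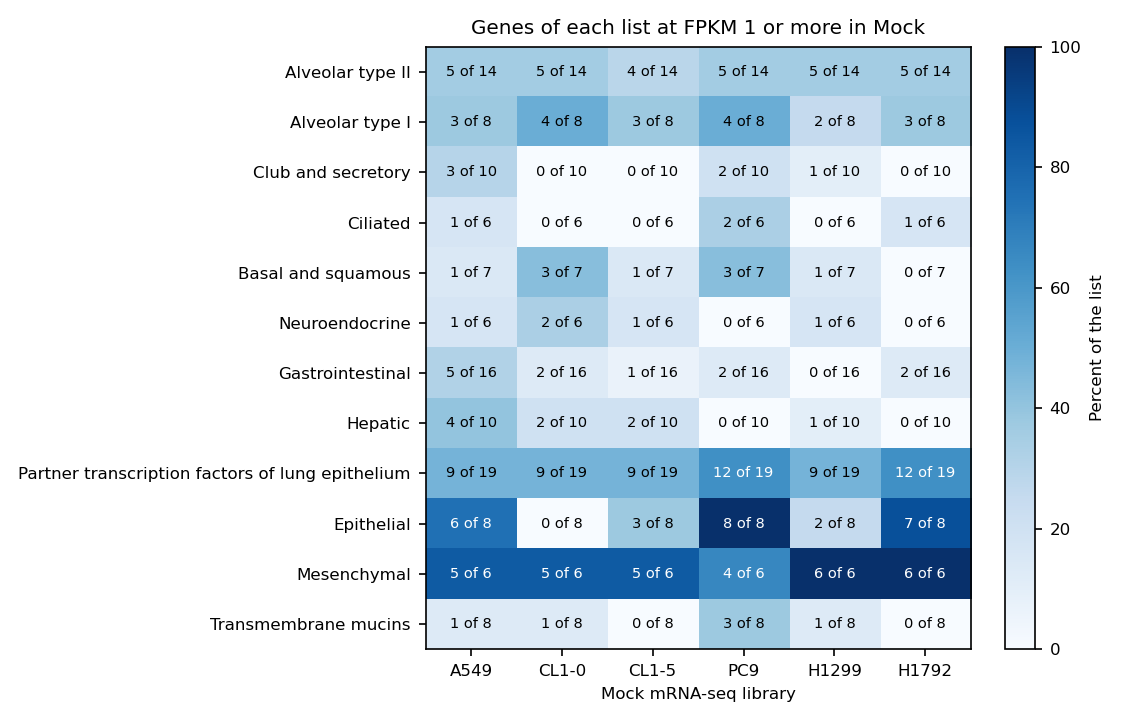
Genes of each of the 12 lists at FPKM 1 or more in the 6 Mock libraries; the colour gives the percent of the list and the figures in the cells give the count. The epithelial row runs from 0 of 8 in CL1-0 to 8 of 8 in PC9, and the alveolar type II row is 4 or 5 of 14 in each line. Over all genes of the table, the share was between 31.6% (H1299) and 34.2% (H1792).

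The genes whose levels followed each expressed member most closely were found over the 12 libraries by Pearson's r of log2(FPKM + 0.1), among the 13363 genes whose mean FPKM was 1 or more. The libraries are pairs of treatments of 6 lines, so these values are descriptions. HNF4A was followed by APOH (r = 0.991), a plasma glycoprotein of the liver, and by TM4SF20 (0.988). Like HNF4A, these had 16.9 and 51.0 FPKM in A549 Mock and at most 0.151 FPKM outside A549, so these r values rest on A549 against the other lines. FOXA2 was followed by TM4SF1 (0.936), SLC15A4 (0.915) and OAS1 (0.910). FOXA1 was followed by the noncoding genes ZFAND2A-DT (0.961) and HOXA-AS2 (0.948) and by ENSG00000260176 (0.943). MUC1 was followed by SDCBP2 (0.876), CBLC (0.859) and CCDC84 (0.841).

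The promoter sequences show how unlike these genes are. RefSeq windows (GRCh38.p14) of 300 bases, from 250 before to 50 after a start, were found for 7 of the 10 genes, 12 windows in all, and each matched the GRCh37 genome once. FOXA2, SFTPC and SCGB1A1 had no window in the table. The 250 bases before a start of the surfactant genes SFTPB (chr2:85895323-85895572, minus strand) and SFTPA1 (chr10:81370445-81370694, plus strand) and of the inner start of NKX2-1 (chr14:36988762-36989011, minus strand) are shown 5′ to 3′, since these hold the motifs of the lung factors. The capitals mark motif matches.
SFTPB: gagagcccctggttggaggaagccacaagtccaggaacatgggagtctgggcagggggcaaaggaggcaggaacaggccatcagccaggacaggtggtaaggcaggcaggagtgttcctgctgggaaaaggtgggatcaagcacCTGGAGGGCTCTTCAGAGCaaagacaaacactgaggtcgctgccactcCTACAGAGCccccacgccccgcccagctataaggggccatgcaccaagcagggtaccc
SFTPA1: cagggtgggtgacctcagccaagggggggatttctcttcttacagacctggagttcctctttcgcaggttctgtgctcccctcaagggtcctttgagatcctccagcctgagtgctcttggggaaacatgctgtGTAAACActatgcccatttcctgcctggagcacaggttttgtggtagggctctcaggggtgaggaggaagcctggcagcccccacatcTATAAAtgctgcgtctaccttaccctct
NKX2-1: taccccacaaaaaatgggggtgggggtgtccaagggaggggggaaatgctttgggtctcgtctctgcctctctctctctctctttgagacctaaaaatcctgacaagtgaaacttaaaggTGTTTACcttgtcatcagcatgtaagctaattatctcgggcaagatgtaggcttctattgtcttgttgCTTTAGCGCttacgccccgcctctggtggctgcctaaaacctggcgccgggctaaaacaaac

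Motifs were searched on both strands. They were GCNCTNNAG for NKX2-1, TGTTTAC for forkhead factors, CAAAGTCCA for HNF4 and TATAAA for the TATA box. The NKX2-1 letters occurred in this SFTPB window at positions -106 to -98, -99 to -91, -96 to -88 and -58 to -50, counted back from the start. The first overlaps the second, which overlaps the third, and together they make the longer run of capitals. The second SFTPB window held 1 match, at -55 to -47. The inner NKX2-1 window held a forkhead match at -130 to -124 and an NKX2-1 match at -62 to -54. SFTPA1 held a forkhead match at -116 to -110 and a TATA box at -28 to -23. FOXA1 held an NKX2-1 match at -49 to -41. Of 35116 promoter windows, 17.7% held the NKX2-1 letters, 3.42% the forkhead letters, 0.384% the HNF4 letters and 11.5% the TATA letters. The 12 windows held them in 4, 2, 0 and 3 cases. Windows of the same gene are not independent. Both MUC1 windows overlap and hold the same TATA letters, at -30 to -25 and at -24 to -19. Both SFTPB windows are among the NKX2-1 cases. A match is a match of letters and not a measured binding site.

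The next windows were chosen for their CpG dinucleotides, the sites at which DNA methyltransferases act, and because peaks of open chromatin lay on or beside them. Shown are the 250 bases before the outer start of NKX2-1 (chr14:36989438-36989687, minus strand), before FOXA1 (chr14:38064455-38064704, minus strand), MUC1 (chr1:155162701-155162950, minus strand) and the upstream start of HNF4A (chr20:42984089-42984338, plus strand), with each CpG in capitals.
NKX2-1: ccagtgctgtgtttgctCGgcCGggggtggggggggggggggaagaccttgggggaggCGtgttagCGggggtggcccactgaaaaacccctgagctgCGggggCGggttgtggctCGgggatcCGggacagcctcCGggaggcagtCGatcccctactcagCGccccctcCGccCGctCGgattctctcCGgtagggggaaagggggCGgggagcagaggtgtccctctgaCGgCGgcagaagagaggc
FOXA1: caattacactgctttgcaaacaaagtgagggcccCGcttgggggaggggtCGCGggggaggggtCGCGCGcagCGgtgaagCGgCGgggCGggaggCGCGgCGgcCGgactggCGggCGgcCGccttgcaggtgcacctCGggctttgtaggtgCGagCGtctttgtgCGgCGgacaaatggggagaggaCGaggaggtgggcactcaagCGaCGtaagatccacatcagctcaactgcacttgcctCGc
MUC1: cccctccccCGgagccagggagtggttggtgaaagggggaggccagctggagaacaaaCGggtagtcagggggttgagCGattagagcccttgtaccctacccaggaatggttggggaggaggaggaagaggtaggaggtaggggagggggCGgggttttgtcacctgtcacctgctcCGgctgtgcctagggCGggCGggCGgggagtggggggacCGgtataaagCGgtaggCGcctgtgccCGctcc
HNF4A: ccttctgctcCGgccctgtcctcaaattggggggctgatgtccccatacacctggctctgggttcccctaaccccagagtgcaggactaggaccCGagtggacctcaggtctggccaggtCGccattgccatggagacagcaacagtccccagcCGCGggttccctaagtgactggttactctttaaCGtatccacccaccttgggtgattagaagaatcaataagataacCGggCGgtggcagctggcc

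FOXA1 had 34 CpG in its 300-base window, above 84.4% of all windows, and the outer NKX2-1 window had 21, above 60.5%. MUC1 had 13 and HNF4A had 11 and 9, close to the median of 14. The windows of SFTPB had 3 and 1 and that of SFTPA1 had 2, under the lower quartile of 4. NAPSA had 5 and 10. DNA methylation was not measured in the files used here.

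DAC was compared with Mock over 5 lines (H1792 was left out, as in the original design) with limma on log2(FPKM + 0.1) and the line as a block. Of the 10 genes, 6 passed the filter of a mean FPKM of 0.1, and 0 of these 6 were called at an adjusted p of 0.05. SFTPB, SFTPC, SFTPA1 and SCGB1A1 were under it. None had an unadjusted p under 0.05 either, and voom on the recovered reads also called 0. Of the 22603 genes tested, limma called 0.119% higher and 0% lower, and at an unadjusted p under 0.05 the shares were 8.07% and 4.4%. These unadjusted counts were 1825 and 994, and they became 2509 and 532 when libraries were rescaled to a common sum and 1170 and 1579 after quantile normalization. That rescaling moved the median log2 change of all genes from 0.068 to 0.170. The median over the 6 genes was 0.02, against 0.07 over all genes tested.

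FOXA1 had the smallest p of the 6. Its change was -0.37 ± 0.17 (SE, n = 5 lines; limma, adjusted p = 0.427), from 4.17 ± 3.69 to 2.85 ± 2.27 FPKM (SD), and it was lower in 4 of the 5 lines. MUC1 had the largest change, 0.60 ± 0.36 (SE, adjusted p = 0.514, limma), and was higher in 3 of 5 lines. Its change was 0.27 without PC9. NKX2-1 changed by 0.27 ± 0.24 (adjusted p = 0.631, limma), HNF4A by -0.15 ± 0.25 (adjusted p = 0.803), FOXA2 by 0.04 ± 0.31 (adjusted p = 0.967) and NAPSA by -0.01 ± 0.21 (adjusted p = 0.990). HNF4A passed the filter through A549 alone, so its value averages the change of A549 with 4 lines at 0.062 FPKM or less. Without CL1-0 the changes were -0.40 for FOXA1, 0.81 for MUC1, 0.30 for NKX2-1, -0.20 for HNF4A, 0.058 for FOXA2 and -0.044 for NAPSA, and 0 were called. The signs of NKX2-1, FOXA2, NAPSA and HNF4A turned under at least 1 other setting.

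**Figure D3:**
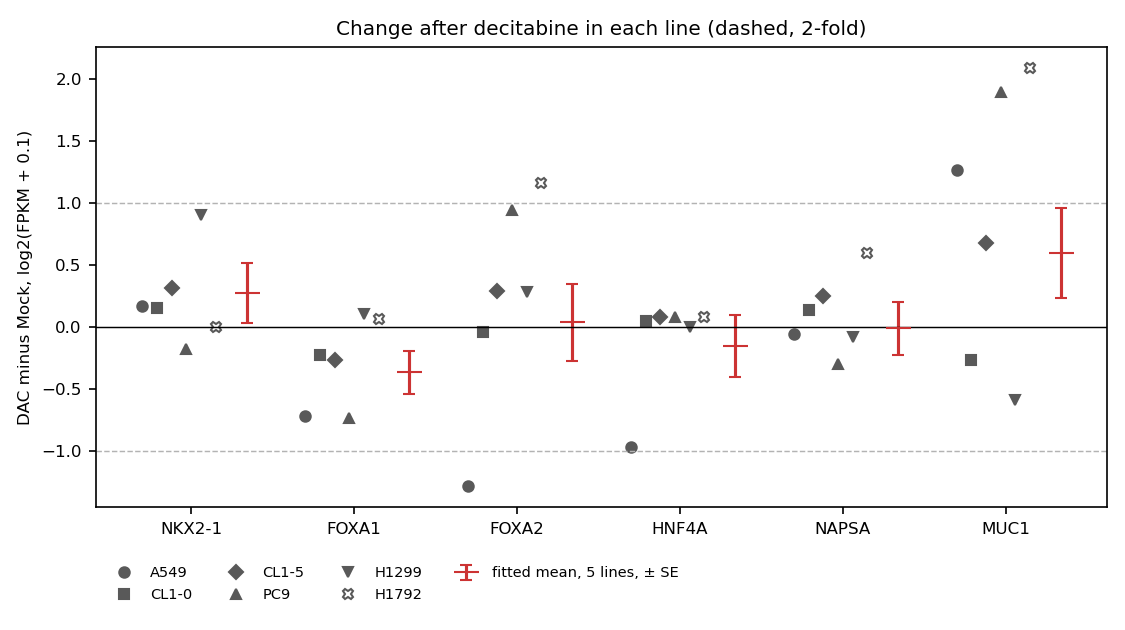
DAC minus Mock on the log2(FPKM + 0.1) scale for the 6 genes that passed the filter, 1 symbol per line, with the fitted mean over 5 lines and its SE in red; H1792 is open and not in the fit. The dashed lines mark 2-fold; MUC1 spreads from -0.59 in H1299 to 2.09 in H1792, and the A549 points of FOXA2 and HNF4A lie at -1.28 and -0.97.

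Within lines, where 1 library stood for each treatment and no test was possible, 6 of the 60 pairs of gene and line were at least 2-fold higher after DAC and 1 was at least 2-fold lower. By line, A549 had 1 higher and 1 lower, CL1-5, PC9 and H1299 had 1 higher each, H1792 had 2 higher and CL1-0 had 0. Of all genes tested, the shares at least 2-fold higher and lower were 15.5% and 6.69% in A549, 7.6% and 2.14% in CL1-0, and 7.25% and 5.05% in CL1-5. They were 10.2% and 3.1% in PC9, 8.18% and 3.15% in H1299, and 10.3% and 5.79% in H1792. The count of higher pairs lay near these shares and the count of lower pairs, 1, under them. These shares are of genes past the filter of the fit, whereas the 60 pairs include the 4 genes under it. The comparison is therefore loose.

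MUC1 made up 3 of the 6 higher pairs. DAC over Mock was 5.30 in H1792 (95% counting interval 3.37 to 8.69), 3.84 in PC9 (3.19 to 4.64) and 2.62 in A549 (1.85 to 3.77). CL1-5 stood at 1.63 (1.33 to 2.01), CL1-0 at 0.828 (0.672 to 1.02) and H1299 at 0.636 (0.448 to 0.895). The lines therefore split, with 4 above Mock and 1 below it beyond counting error. Among 8 other transmembrane mucin genes, 6 were tested and 0 were called. MUC20, the one with the largest change, was at 1.41 ± 0.32 (SE, n = 5 lines; limma, adjusted p = 0.202) and higher in 5 of 5 lines.

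The endoderm factors were lower in A549. FOXA2 there was at 0.407 of its Mock level (95% counting interval 0.364 to 0.456), HNF4A at 0.506 (0.465 to 0.550) and FOXA1 at 0.601 (0.518 to 0.696). HNF4A missed 2-fold on the log2(FPKM + 0.1) scale by little, at -0.97. The fibrinogen gene FGA went from 14.3 to 31.3 and the gel-forming airway and gastric mucin gene MUC5AC from 4.08 to 21.3. When libraries were rescaled to a common sum, FOXA2 in A549 was at -0.94, HNF4A at -0.62 and FOXA1 at -0.38, since that scaling moved the median change of all genes in A549 from 0.073 to 0.358.

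FOXA1 in PC9 was at 0.599 of Mock (0.534 to 0.670) and in CL1-0 at 0.852 (0.752 to 0.966). In H1792 and H1299 its intervals included 1. FOXA2 was 2.36-fold higher in H1792 (1.75 to 3.23), which brought it from 0.976 to 2.31 FPKM, and 1.22-fold higher in CL1-5 (1.11 to 1.35). In PC9 the 3 reads of Mock and 12 of DAC gave a ratio of 3.59 with an interval of 0.969 to 19.8.

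H1299 was the line in which NKX2-1 and a surfactant gene were both above Mock beyond counting error, at levels under FPKM 1. SFTPC there was 4.02-fold higher (1.70 to 11.0), from 14 to 52 reads, and NKX2-1 was 3.46-fold higher (1.21 to 12.1), from 10 to 32 reads. On the log2(FPKM + 0.1) scale these changes of 1.21 and 0.91 became 0.43 and 0.20 after quantile normalization. SFTPB was 1.54-fold higher, with an interval of 0.824 to 2.93 that included 1. SFTPA1 went from 12 to 4 reads. Epithelial markers summed to 112 FPKM in Mock and 673 after DAC in H1299. Most of both sums came from the keratin genes KRT8 (37.8 and 367) and KRT18 (73.4 and 296). The next highest marker after DAC was KRT19 at 3.92. The part of these markers in the NKX2-1 and surfactant gene values was not tested. SCGB1A1 in CL1-5 passed 2-fold with 1 read in Mock and 4 after DAC, a ratio of 4.46 with an interval of 0.442 to 220. Over the 60 pairs, 21 were at or under the floor in both treatments. Of the other 39, 8 had an interval above 1 and 6 had one below 1. The share of all genes with such intervals was not computed. These counts can therefore not be read as particular to the 10 genes.

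No gene of the 12 lists was called in the limma fit, in which 90 of the 118 were tested. At an unadjusted p under 0.05, 15 were higher and 2 lower, with a median change of 0.24 over the 90, against shares of 8.07% and 4.4% and a median of 0.07 over all genes tested. The split of these shares moves with the scaling, as given above. Voom on the recovered reads called 4, all higher, namely MUC5B, VIL1, TFF2 and MUC13. In the alveolar type II list, 8 genes were tested. Their largest change was that of SLC34A2, 0.92 ± 0.56 (SE), and their smallest that of ETV5, a factor of type II cell maintenance, at -0.47 ± 0.17 (adjusted p = 0.347, limma), lower in 5 of 5 lines. Among the gastrointestinal genes FOXA3, another FOXA factor, which acts in liver and gut, had the largest change, 1.57 ± 0.37 (adjusted p = 0.220, limma), and was higher in 5 of 5 lines. In A549 FOXA3 went from 0.979 to 2.31 FPKM, while FOXA1 and FOXA2 were lower there. Of the epithelial genes, EPCAM, an epithelial adhesion molecule, had the largest change at 1.69 ± 0.54 (adjusted p = 0.309, limma). SYP had the smallest change among the neuroendocrine genes, -0.74 ± 0.16 (adjusted p = 0.190, limma), lower in 5 of 5 lines.

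The remaining lists gave the following extremes in the same fit. In the alveolar type I list, AQP5, a water channel, was at 0.79 and CAV1, a caveolar coat gene, at -0.28, with CAV1 also the highest in Mock at 237 FPKM in PC9. The club and secretory list ran from 0.37 for PIGR to 0.96 for MUC5AC, and the ciliated list from -0.28 for RSPH1 to 1.30 for FOXJ1, the master factor of motile cilia. In the ciliated list CAPS was highest in Mock, at 2.33 FPKM in PC9. The basal and squamous list ran from -0.10 for KRT15 to 1.16 for the desmosomal cadherin gene DSG3, and the partner transcription factors from -0.35 for NFIA to 0.83 for ELF3, with ID2 highest in Mock at 108 FPKM in A549. The hepatic list ran from -0.33 for SERPINA1 to 0.54 for FGA, the mesenchymal list from -0.21 for TWIST1 to 0.27 for CDH2, and CDX2 and CHGA stood at -0.24 and 0.30. ESRP1 stood at -0.11 and MUC4, the highest transmembrane mucin in Mock at 3.36 FPKM in PC9, at -0.11. These values did not pass the test.

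The ATAC-seq files hold broad peaks called in each library on its own. Libraries had between 45354 and 97584 peaks, and each of the 4 pairs had more after DAC than in Mock. A gene was counted as having a promoter peak when the deposited annotation placed a peak for it within 3000 bp of a start. The file names exchange CL1-5 and PC9 relative to the sample labels, so libraries are named here by their labels. Of 98 genes at FPKM 10 or more in PC9 and 0.1 or less in CL1-5 in Mock, 89.8% had a promoter peak in the library labelled CL1-5 and 48.0% in that labelled PC9. Of 36 genes with the opposite pattern, the shares were 44.4% and 58.3%. The mRNA of these lines thus goes against the ATAC labels of this pair.

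In Mock, 7 of the 10 genes had a promoter peak in A549, 8 in the library labelled CL1-5, 6 in that labelled PC9 and 4 in H1299. After DAC, the counts were 8, 7, 6 and 3. The shares over all 22151 named genes were 62.2% and 65.4% in A549 (Mock and DAC), 65% and 66.2% in the libraries labelled CL1-5, 63.4% and 66.4% in those labelled PC9, and 58.3% and 61.3% in H1299. Of the genes without a promoter peak in Mock, A549 had one listed after DAC in 2 of 3 cases (SFTPA1 and MUC1), and the pairs labelled CL1-5, PC9 and H1299 in 0 of 2, 0 of 4 and 0 of 6. In the MUC1 case a peak beside the gene was already called in Mock and listed for MIR92B. A listed peak was absent after DAC for SFTPC in A549, HNF4A in the pair labelled CL1-5 and SFTPA1 in H1299. The background for gained peaks was the share of all genes without a Mock promoter peak that had one after DAC. These shares were 16.7% (A549), 12.9% (label CL1-5), 16.6% (label PC9) and 14.8% (H1299). No share over all genes is given for peaks absent after DAC.

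**Figure D4:**
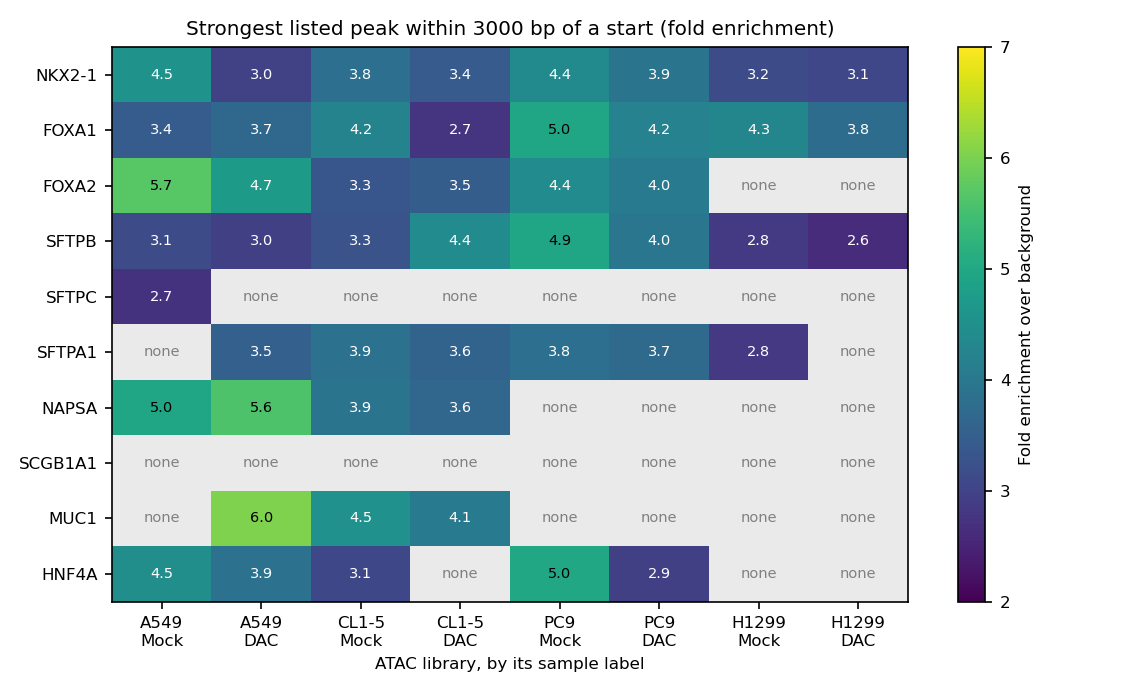
Fold enrichment of the strongest peak listed for each gene within 3000 bp of a start, in the 8 ATAC libraries named by their sample labels; grey cells had none. NKX2-1, FOXA1 and SFTPB have a peak in 8 of 8 libraries and SCGB1A1 in 0; in the libraries without a listed MUC1 peak, the peak beside MUC1 was listed for its neighbour MIR92B.

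Promoter peaks were also listed for pairs with little mRNA. Of 8 pairs of gene and line at FPKM 1 or more in Mock, 6 had a listed promoter peak, and of the 32 other pairs 19 had one. Exchanging the labels of CL1-5 and PC9 left both counts the same. By distance to a GENCODE transcript start, the counts were 8 of 8 and 25 of 32. Under this rule the Mock shares over all genes were 62.0% in A549 and 58.1% in H1299. They were 66.3% in the library labelled CL1-5 and 64.1% in that labelled PC9. The rule also counts peaks listed for neighbours, such as MIR92B beside MUC1 and BMP1 or LGI3 beside SFTPC.

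NKX2-1 had a peak with little mRNA. The peak covered its outer start and the CpG-rich window shown above in 8 of 8 libraries. In A549 Mock, with 0 reads of NKX2-1, it ran from 36989214 to 36990058 on chromosome 14 with a fold enrichment of 4.55 over the local background, above 53.3% of the peaks of that library. In H1299 the fold enrichment was 3.17 in Mock and 3.07 after DAC. FOXA1 also had a peak over its window in 8 of 8 libraries, at 3.18 in A549 Mock and 4.29 in H1299 Mock. In the libraries labelled PC9 and CL1-5 the peaks over this window were at 4.96 and 4.25 in Mock, in the order of the FOXA1 mRNA of the labelled lines. They covered largely different bases, from 38063500 to 38064593 in PC9 and from 38064555 to 38065572 in CL1-5. The comparison is therefore loose. The −log10 q of these peaks had the opposite order, 11.25 in PC9 and 16.15 in CL1-5.

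FOXA2 peaks were the strongest in A549, at a fold enrichment of 5.71 and a −log10 q of 30.8 in Mock and 4.72 and 24.0 after DAC. In the library labelled PC9 they were at 4.41 and 12.7 in Mock, and in that labelled CL1-5 at 3.34 and 2.91. The FOXA2 mRNA had the opposite order, 0.055 FPKM in PC9 and 10.8 in CL1-5. FOXA2 thus goes against the labels of this pair in both measures. FOXA1 goes with them by fold enrichment and against them by −log10 q, in peaks that covered largely different bases. H1299 had no FOXA2 promoter peak and 0.054 FPKM.

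For HNF4A, a peak over the upstream window shown above was called in A549 Mock, from 42984014 to 42984699 on chromosome 20, with a fold enrichment of 4.48 and a −log10 q of 4.03. After DAC, A549 had a peak just past this window, from 42984452 to 42984911, with a fold enrichment of 3.07 and a −log10 q of 1.47. Nearer the downstream start, A549 had a peak in both treatments, at 2.76 in Mock (43027116 to 43027618) and 3.87 after DAC (43027101 to 43027407), and in Mock another from 43029719 to 43030029 at 2.83. Over the same upstream window, weak peaks were called in the library labelled CL1-5 in Mock and in that labelled PC9 after DAC, at −log10 q of 1.73 and 1.39. H1299 had none.

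For MUC1, peaks reached into the window shown above in the libraries labelled CL1-5 alone, at a fold enrichment of 4.53 in Mock and 4.05 after DAC, with the peak starting at 155162813 on chromosome 1. In the other 6 libraries the peak began farther upstream, between 155163047 and 155163170. In Mock, MUC1 mRNA did not differ between PC9 and CL1-5 beyond counting error.

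The listed SFTPB peaks lay inside the gene. In 7 of 8 libraries the strongest one began between 85890013 and 85890066 on chromosome 2, at -1408 to -1355 bp from an internal transcript start, and not at the windows of the RefSeq starts. In the library labelled PC9 after DAC, a longer one ran from 85888553 to 85890476 and covered that internal start. No library had a peak over either RefSeq window of SFTPB, including the one with 4 NKX2-1 matches, nor over that of SFTPA1. For NAPSA, a peak lay over the window of the outer start in 8 of 8 libraries and over that of the inner start in 0. SCGB1A1 had no listed promoter peak in the 8 libraries. SFTPC had a weak one in A549 Mock, with a −log10 q of 1.84.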

How the data were processed

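Messenger RNA of 12 libraries and open chromatin of 8 libraries were measured. The mRNA table was deposited as FPKM values that the authors normalized with the size factors of DESeq2 1.24.0 after mapping to hg19. It also holds the mean normalized signal per gene over libraries, deposited by the authors beside columns of their own comparison (fold change, its error, test statistic and p-values), which were not used. Every sample column was mapped, and 0 were left over. The peak files, deposited per library by the authors, give a MACS2 2.2.5 score, a fold enrichment ratio over local background, and −log10 p and q values, with BWA 0.7.17-r1188 and ChIPseeker 1.20.0 named in the submitters' notes.

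Whole reads were recovered from FPKM and the mean signal (100% of values within 0.02 of a whole number). A gene with a mean FPKM under 0.1 was left out of the fit by limma 3.58.1 (R 4.3.3) on log2(FPKM + 0.1), with the line as a block, an intensity trend and Benjamini-Hochberg adjustment over 22603 genes. A fold change on this scale understates the change of low genes. Mock and DAC of a line deviated together (correlations of 0.731 to 0.900 within lines and -0.351 to 0.115 between lines), which is the pairing by cell line. With 1 library per line and treatment, p-values measure the spread between lines. Ratios carry exact conditional binomial intervals from read counts. The fit was tested on simulated data.

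The 10 genes and the 12 lists were chosen with earlier results of these data known. Genes named beside the 10 were, per list, the one highest in Mock and those with the largest and smallest change, and per expressed member the 3 most alike over libraries, of which 1 is not reported here. ABCA3, SFTPD, SFTPA2, and the genes called by voom were named after their values were seen. MUC21 was not analysed here. Alternatives were other pseudocounts, filters, scalings, peak rules, voom, and leaving out each line. The alternatives chosen after seeing the data were H1299 reads not halved, the libraries labelled CL1-5 and PC9 exchanged, and Mock levels without CL1-0.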

Additional observations from a re-analysis of the deposited data

Results flagged for a closer look

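Groups of 6 lines were searched for a line far from the rest, as judged by its gap to the nearest line over the whole range (Dixon's test), for the Mock level and the change of each of the 10 genes on the log2(FPKM + 0.1) scale. Of 20 such groups, 4 had one. Several of these genes lie at or under the floor in many lines, and the groups share libraries. The count can therefore not be set against a rate given by chance. HNF4A in Mock stood apart in A549, at 3.27, and its change after DAC stood apart in the same line, at -0.97. SFTPC changed by 1.21 in H1299, apart from the other lines. SFTPA1 in Mock stood apart in H1299 at -2.43, which is 12 reads.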

How the results depend on the processing

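The call of 0 members was the same in all alternatives run, as were the counts of expressed pairs in Mock (9 to 14) and of promoter peaks (within 1.5-fold). With 1 library per line and treatment only the fit over lines has a test, and the surfactant genes and SCGB1A1 are limited by counting error. Pairs at least 2-fold higher, 6 as reported, were 1 at 4-fold, 2 with a pseudocount of 1 and 12 with 0.01. Pairs lower, 1 as reported, were 0 at 4-fold, 6 with a pseudocount of 0.01, 0 after rescaling to a common sum and 2 after quantile normalization. List genes called were 4 with voom and 0 in the other fits.

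Changes near 0 turned sign. NKX2-1 was at -0.042 after quantile normalization. FOXA2 was at -0.14 with a pseudocount of 1, -0.22 after quantile normalization and -0.27 with voom, and between -0.19 (without PC9) and 0.37 (without A549) when a line was left out. NAPSA was at 0.093 with H1792, 0.0025 with a pseudocount of 1 and 0.082 after rescaling, and its leave-one-out range was -0.074 to 0.063. HNF4A was at 0.031 with a pseudocount of 0.01. The cause was not tested. HNF4A could not be fitted without A549, nor NKX2-1 and NAPSA at a mean FPKM of at least 1, since they were under the filter. Without the replicate block of line pairing, 0 members were called, and of all genes 10 were called higher instead of 27. That count was 53 with H1792, 0 with a pseudocount of 1, 2 with no filter, 16 after quantile normalization, 6 with no trend and 178 (1 lower) with voom, and 0 to 22 (at most 1 lower) when a line was left out, with 0 without A549 or without CL1-5.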
